A study of Mus musculus with 4 samples.

Results

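Cytosolic ribosomal protein genes are described here in the septal nasal mucosa of young adult and aged mice. Members were chosen by name: a gene belonged to the set if the accession of one of its array probes matched a RefSeq symbol of the forms Rpl or Rps with a number, Rplp0 to Rplp2, or Rpsa. The rule used no measured value. It found 85 genes with 146 probes among 45616 genes and unnamed array features. Of the 85, 31 encode proteins of the small ribosomal subunit, 43 proteins of the large subunit and 3 the stalk, and 8 are paralogs or copies (Rpl3l, Rpl7l1, Rpl10l, Rpl22l1, Rpl32l, Rpl39l, Rps4l and Rps27l). A test between ages was possible for 84 of them. Rps21, a small subunit gene, was left out because its single spot carried an outlier flag on aged array 1.

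The ribosome reads mRNA and builds protein. Its small subunit decodes the message and its large subunit joins the amino acids, and each is a core of ribosomal RNA dressed with proteins that are made in matched amounts. The mRNAs of these proteins are among the most abundant in most cells, and in mammals many of them start with a cytosine followed by a run of pyrimidines, the 5′ terminal oligopyrimidine (TOP) tract, through which the kinase complex mTORC1 controls their translation. An array measures the amount of the mRNA and not its translation. Because these genes vary little between many conditions, some of them, Rps3 among them, serve as reference genes in quantitative PCR, and Rps3 was the control gene of the qRT-PCR in the study that made these arrays.

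The RNA came from septal nasal mucosa, labelled as olfactory epithelium, of male C57BL/6J mice that were 8 weeks old (young adult) or 16 months old (aged), with no transgene or treatment given for either age. Each of the 4 arrays, 2 per age, was hybridized with Cy3-labelled RNA pooled from 5 mice. The study's animal numbers for gene analyses are smaller than 2 separate pools of 5 mice would require, so pools of one age may share mice. P-values rest on the spread between pools, not between mice, and limma draws each gene's spread toward that of all genes. The labels conflict on the tissue: their description field speaks of lung cells and silica aspiration, and the tag that holds the age also names silica, whereas the titles, source names and tissue tag give olfactory epithelium and the treatment protocol gives septal nasal mucosa. The description was not used.

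Each array read 62976 spots, 59305 of them non-control. No spot was saturated, and 63.1 to 76.8% of non-control spots were well above background. All 12 marker genes of mature olfactory receptor neurons, the odorant-sensing cells of this tissue, were well above background on all 4 arrays, as were all 12 of the sustentacular cells that support them. One slide carried the first array of each age, and the other arrays had a slide each. An expression level below is a normalized array intensity, which has no unit. It can be compared between arrays for one gene, but not between genes, because probes differ in how strongly they bind and label. A difference is the aged mean minus the young adult mean of the log2 level, tested with limma, and a gene was called when its P was below 0.05 and its FDR, by the Benjamini-Hochberg method over all 45604 genes tested, was below 0.25.

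Since TOP tracts are the known shared feature of these mRNAs, the annotated transcription starts of the members were read first. The set of RefSeq starts used here (GRCm38.p6) held a start for 64 of the 85 genes. The first transcribed bases were a C followed by 4 bases that were each C or T in 14 of these 64 genes (21.9%), against 3.01% of 27025 genes of all kinds, searching only the transcribed strand at any annotated start. With the same run of letters allowed anywhere from 10 bases before to 15 bases after the start, the shares were 62.5% of the members and 34.4% of all genes. An annotated start is not a measured cap site, and a start without these letters says only that they are absent from that place. The windows below run from 15 bases before the start to 15 bases into the transcript, and capitals mark the first 5 transcribed bases. The first 5 genes open with the tract and include Rps6, whose protein is the substrate that gave S6 kinase its name, and the last 4 are paralogs, of which Rpl32l alone opens with it.
Rpl28, chr7:4792950-4792979, plus strand: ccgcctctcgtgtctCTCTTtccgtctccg
Rpl35, chr2:39005117-39005146, minus strand: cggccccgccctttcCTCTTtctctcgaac
Rplp2, chr7:141447636-141447665, plus strand: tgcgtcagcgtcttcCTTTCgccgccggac
Rps6, chr4:86857353-86857382, minus strand: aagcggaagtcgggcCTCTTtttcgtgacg
Rps15a, chr7:118116133-118116162, minus strand: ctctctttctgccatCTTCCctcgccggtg
Rpl32l, chr10:20208424-20208453, plus strand: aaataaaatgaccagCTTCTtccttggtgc
Rpl22l1, chr3:28805493-28805522, plus strand: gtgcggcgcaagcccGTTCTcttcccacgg
Rpl39l, chr16:10170213-10170242, plus strand: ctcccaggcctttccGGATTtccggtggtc
Rps27l, chr9:66946071-66946100, plus strand: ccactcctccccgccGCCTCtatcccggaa

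None of the ribosomal protein genes was called between ages: 0 of 84, where 3.98% of all genes tested were called, 1.65% higher and 2.33% lower in aged mice. At an unadjusted P below 0.05 the count was also 0, against 13.1% of all genes. The smallest P among the members was 0.084 and the smallest FDR 0.447, both for Rps27l. A fit in which the prior spread follows intensity (the trend option of eBayes) called 5 of the 84 lower in aged mice, Rps27l, Rpl22l1, Rpl11, Rpl37a and Rps4x, at FDRs of 0.0696 to 0.233, where it called 15.6% of all genes. Leaving out dim probes first called 1, Rps27l, at an FDR of 0.148 or 0.181, where it called 26.5 or 24.2% of the genes left. The members' differences were small and close together. The median log2 difference was -0.048, with the middle 50% of members between -0.08 and -0.006, and over all genes it was 0.009 with a middle 50% between -0.171 and 0.168. The values leaned one way: 65 of the 84 members had a lower mean level in aged mice and 19 a higher one, where 48.5% of all genes had a lower one. The ages did not overlap in 42 of the 84 members (50%, against 46% of all genes), and overlapped in the other 42. In 37 of the former (44% of the 84, against 21.8% of all genes) aged mice were lower, and in 5 (5.95%, against 24.2%) higher. Most members are bright, and all genes with a mean level of at least 10000 did not overlap in 58.2%. Aged mice were lower in 28.4% and higher in 29.8% of those bright genes. In bulk tissue, fewer cells of a type and less RNA per cell cannot be told apart.

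**Figure D1:**
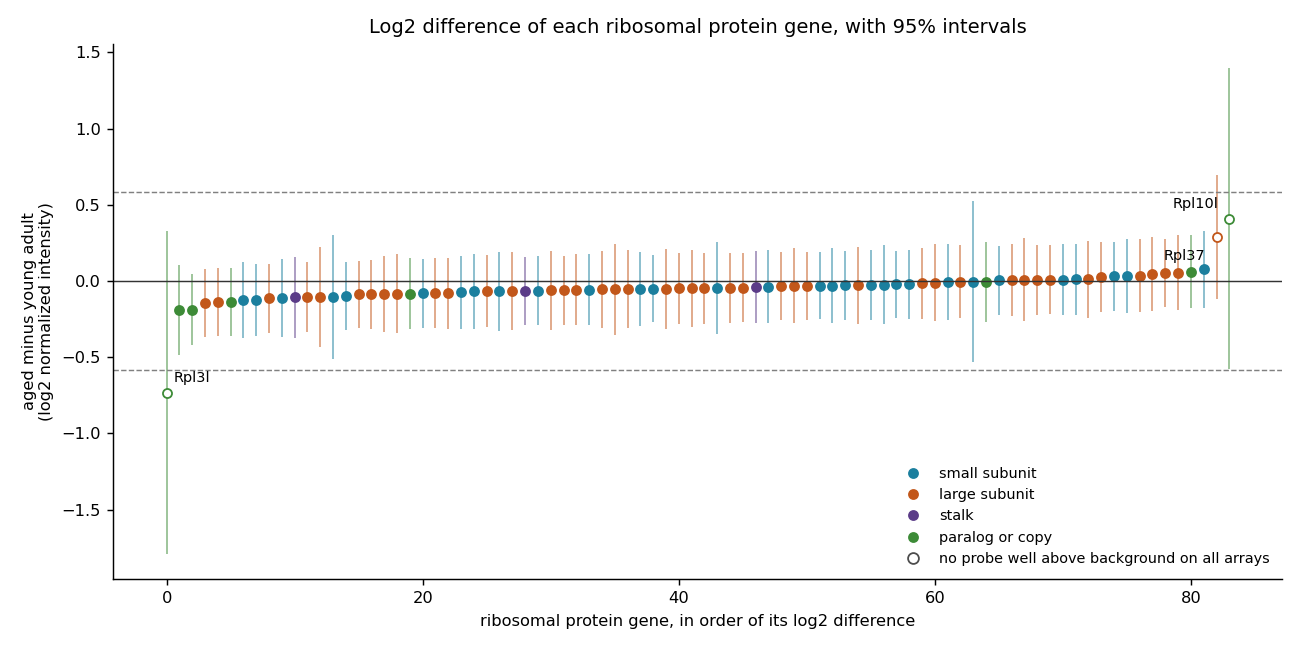
Aged minus young adult log2 difference of each of the 84 ribosomal protein genes tested (points, in order of their value) with its 95% interval from limma (vertical lines), coloured by place in the ribosome; hollow points have no probe well above background on all 4 arrays, and dashed lines mark a 1.5-fold difference either way. All intervals include 0, and only those of Rpl3l, Rpl37 and Rpl10l, the hollow points, reach past 1.5-fold.

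The error that the fit gives each gene sets what it could call. That error draws on the spread of all genes as well as on the gene's own pools. The members' own SD between pools of one age had a median of 0.0391, against 0.135 over all genes. The median standard error of a member's difference was 0.0795, and at that error a log2 difference of 0.416, or 1.33-fold, would have been needed for a call in this fit. The 95% interval lay within 1.5-fold in either direction for 81 of the 84 members (96.4%), against 47% of all genes. Narrow intervals were not particular to these genes: the share was 70.8% of all genes with a probe well above background on all arrays, 91.2% of all genes with a mean level of at least 10000 and 98.7% of the mitochondrial ribosomal protein genes. Bright probes in general have narrower spreads, and 76 of the 84 members had a mean level of at least 10000, and these 76 had a median of -0.05 with a middle 50% between -0.08 and -0.019. The 2059 genes of any kind above that level had a median of -0.008 with a middle 50% between -0.076 and 0.087, and 83 of them were called, 30 higher and 53 lower in aged mice.

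**Figure D2:**
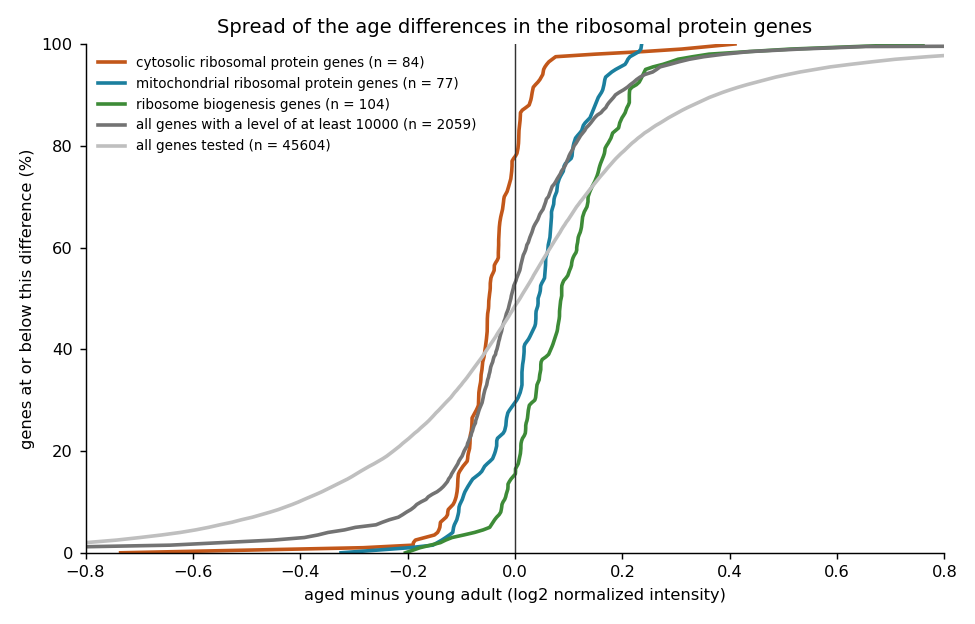
Share of genes (vertical axis, %) at or below each aged minus young adult log2 difference (horizontal axis, cut at 0.8 either way) for the cytosolic ribosomal protein genes, 2 other groups of ribosome genes, bright genes and all genes tested. The curve of the cytosolic ribosomal protein genes is steep and crosses 50% at -0.048, left of the mitochondrial ribosomal protein genes at 0.043 and the ribosome biogenesis genes at 0.086.

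The lean could also be read from the single arrays. For the 81 members with at least 1 probe well above background on all arrays, the level on each array was set against the gene's own mean over the 4 arrays. In young adult mice the median deviation was 0.013 on array 1 and 0.033 on array 2, and in aged mice it was -0.028 and -0.009 (log2). On young adult array 2, 15 of the 81 lay below their own mean, and on aged array 1, 66 did. The 2 arrays of one age thus differed by about as much as the nearer arrays of different age. At both ages the lower median was that of array 1, and the first arrays shared a slide. Without aged array 1, the median log2 difference of all members was -0.0307 in place of -0.0483, and without young adult array 2 that of the large subunit was -0.0219 in place of -0.0489. Of the widest single deviations, 0.21 and -0.204 belonged to Rps27a on the young adult arrays. One of its 2 probes was well above background on no array. The other probe of Rps27a, alone, read 87962 and 87283 in young adult and 91004 and 90147 in aged mice.

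**Figure D3:**
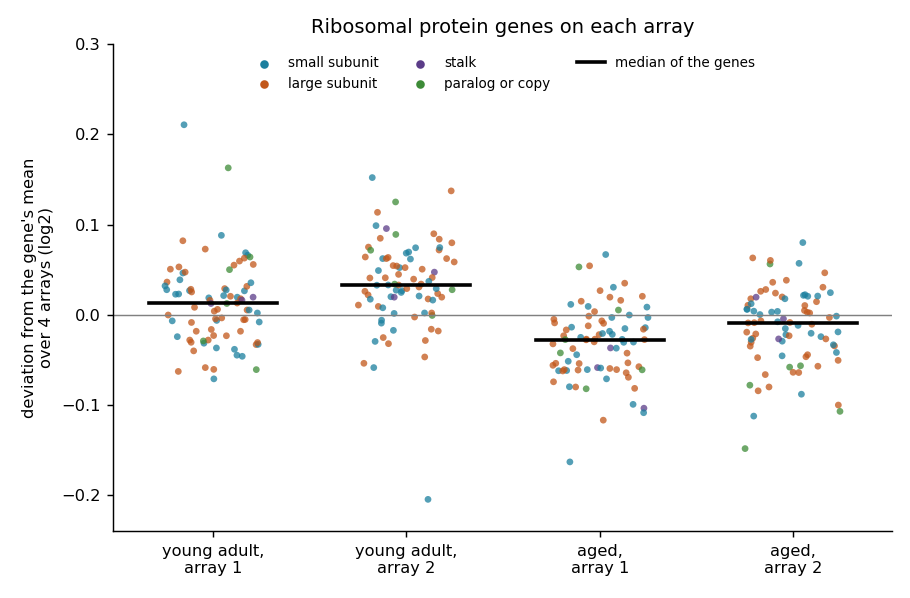
Deviation of each of 81 ribosomal protein genes from its own mean over the 4 arrays (vertical axis, log2; 1 point per gene, spread sideways for visibility), by array, with the median of the genes as a black line. The medians of 0.013, 0.033, -0.028 and -0.009 from left to right are small beside the spread of the genes on each array.

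In the small subunit, 0 of 30 genes tested were called, 24 had a lower and 6 a higher mean in aged mice, and the median log2 difference was -0.034, between -0.126 and 0.077. All 30 intervals lay within 1.5-fold. Rps14 had a level of 110187 and 115751 in young adult and 100954 and 106120 in aged mice. The ages did not overlap, and the log2 difference of -0.126 had a 95% interval from -0.374 to 0.123 (FDR 0.601, limma). Rps4x, encoded on the X chromosome, read 40376 and 38967 against 37027 and 35737. Its ages did not overlap either, with a log2 difference of -0.125 (interval -0.36 to 0.11).

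Rps3, a DNA repair factor as well as a ribosomal protein and the qRT-PCR control of the study, had a level of 37627 and 39786 in young adult and 35764 and 38118 in aged mice. The lower young adult array lay below the higher aged array, so the ages overlapped. The log2 difference of Rps3 was -0.07, with an interval from -0.328 to 0.193 (FDR 0.778, limma). It ranked 27 of 84 from the lowest, and 72 of the other members lay within 0.1 of it in log2 difference and 80 within 0.15.

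The highest values among the small subunit genes belonged to Rps15a, Rps24 and Rps12. Rps15a read 4007 and 4190 in young adult and 4200 and 4447 in aged mice, a log2 difference of 0.0769 (interval -0.174 to 0.328). That mean joined 3 probes that differed. Its dimmest probe, read from 1 spot, had a level of 77.4 and 79.4 in young adult and 96 and 106.4 in aged mice, a log2 difference of 0.367 (FDR 0.301 over all probes, limma). The other 2 probes of Rps15a had log2 differences of -0.0367 and -0.0993. Rps24, needed for the maturation of the small subunit RNA, read 76179 and 71803 against 75369 and 75847, so both aged arrays lay between the young adult ones. Rps12 read 93006 and 95181 against 95609 and 96516, which put both aged arrays above, by a log2 difference of 0.03 (interval -0.194 to 0.254).

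Further small subunit genes were looked at for their role, chosen after their values were seen. Rps6, the protein that S6 kinase phosphorylates downstream of mTORC1, read 33638 and 36069 in young adult and 33513 and 35057 in aged mice, a log2 difference of -0.0232 (interval -0.283 to 0.236). Rps19, mutated in Diamond-Blackfan anaemia, read 49935 and 52180 against 47686 and 49349. Rpsa, which is also known as a laminin receptor, read 64730 and 66761 against 65165 and 66618. Rpsa and Rps6 overlapped between ages, and Rps19 did not. Rps20, named for the high intensity of its probe, read 161081 and 171951 against 162227 and 163799, with overlapping ages. For Rps21, the flagged gene, keeping the flagged spot gave 69413 and 63268 against 66614 and 61955, a log2 difference of -0.045 (standard error 0.098, FDR 0.874, limma).

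In the large subunit, 0 of 43 genes were called, 32 had a lower and 11 a higher mean in aged mice, and the median log2 difference was -0.049. The 42 of them with a probe well above background on all arrays had intervals within 1.5-fold. The lowest was Rpl11, which joins Rpl5 and the 5S RNA in a particle that also binds the p53 regulator Mdm2. Rpl11 had a level of 130123 and 132093 in young adult and 119376 and 117594 in aged mice. The ages stood apart, with a log2 difference of -0.146 and an interval from -0.369 to 0.077 (FDR 0.521, limma). Rpl11 rests on 1 probe read from 1 spot, and with scaling to the 75th percentile its difference was -0.0706. Its partner Rpl5, added after its values were seen, read 26732 and 27622 against 26147 and 25280, a log2 difference of -0.0799 (interval -0.313 to 0.153).

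Rpl37a read 134388 and 137084 in young adult and 122817 and 123510 in aged mice, again without overlap, for a log2 difference of -0.14 (interval -0.363 to 0.082). Rpl32 read 106121 and 103781 against 96141 and 97812, a log2 difference of -0.114 (interval -0.339 to 0.111). Both genes rest on 1 probe. At the other end, Rpl4 was the large subunit gene above background with both aged arrays above both young adult arrays. It read 102388 and 103469 against 105905 and 107460, a log2 difference of 0.0517 (interval -0.17 to 0.273). Rpl4 lines the tunnel through which the new protein chain leaves the ribosome.

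Rpl28, Rpl23 and Rpl13a also had higher means in aged mice, but their ages overlapped. Rpl28 read 39079 and 41082 in young adult and 40636 and 42561 in aged mice. Rpl23 read 57026 and 54629 against 58868 and 56332, and its 2 probes had opposite signs, 0.128 and -0.0373. Rpl13a, which is released from the ribosome to silence inflammatory mRNAs in interferon-treated myeloid cells, read 49786 and 52693 against 52554 and 52338. Rpl10, one of the last large subunit proteins to join, is named for the intensity of its probe and read 179655 and 202658 against 181897 and 185972, with 1 young adult array apart from the other 3. Rpl37 had a dim probe that was well above background on 1 of 2 arrays of each age. It read 54.9 and 52.3 against 59.3 and 72.4, and no fold is given for it.

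All 3 stalk genes, whose proteins draw the elongation factors to the ribosome, had lower means in aged mice, with a median log2 difference of -0.064 and none called. Rplp2 read 159106 and 159099 in young adult and 150763 and 159105 in aged mice. In these quantile-normalized values aged array 1 alone was lower, and the other 3 arrays read almost the same. With scaling to the 75th percentile the log2 difference of Rplp2 was 0.0078 in place of -0.0388. Rplp1 read 69913 and 71411 against 67382 and 67827, and Rplp0, another common reference gene, read 87288 and 92494 against 80583 and 86288. Neither overlapped between ages, and the log2 differences were -0.0637 (interval -0.287 to 0.159) and -0.108 (interval -0.373 to 0.158).

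The paralogs held the members furthest from 0 but none was called (0 of 8). Their median log2 difference was -0.111, from 6 lower and 2 higher means. The median and counts include the dim Rpl3l (lower) and Rpl10l (higher), whose values carry no order. Rps27l, a paralog of Rps27 induced by p53, had a level of 17379 and 18127 in young adult and 15711 and 15438 in aged mice. Both aged arrays were lower, by a log2 difference of -0.189 with an interval from -0.421 to 0.044 (FDR 0.447, limma). Its 2 probes gave -0.145 and -0.233 (FDR 0.539 and 0.365 over all probes, limma). Rpl22l1, a paralog of Rpl22 that can enter the ribosome in its place, read 19340 and 19863 against 17906 and 17698. Its ages stood apart too, with a log2 difference of -0.139 (interval -0.364 to 0.086).

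Rpl39l, known as a testis-enriched paralog of Rpl39, had a low level of 194.5 and 177.2 in young adult and 168.8 and 156.8 in aged mice, although its probe was well above background on all arrays. The log2 difference was -0.19 with an interval from -0.485 to 0.105. Rpl32l, a copy of Rpl32, read 41585 and 43332 against 40465 and 39658. Rps4l, annotated as a transcribed pseudogene, read 2919 and 3042 against 3055 and 3166. Both aged arrays were higher, by a log2 difference of 0.0617 (interval -0.176 to 0.299). Rpl7l1 read 438.7 and 458.2 against 464.2 and 429.8 and overlapped between ages. The probes of Rpl3l, the striated muscle form of Rpl3, and Rpl10l, the testis form of Rpl10, were well above background on no array. Rpl3l read 15.5 and 28.6 against 13.5 and 11.8, and Rpl10l 22.4 and 35.1 against 44.9 and 31. Values at this brightness carry no order, and no fold is given.

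Setting each paralog against its partner on the same array removes a shift that both share. Only the change of such a ratio between ages is read, since its size depends on the probes, and the dim Rpl3l and Rpl10l are left out. The log2 ratio of Rps27l to Rps27 was lower in aged mice by 0.168 on average (difference -0.168, pooled SD between pools of one age 0.0299, n = 2 per age), and the ages did not overlap. The ratio of Rps4l to Rps4x was higher by 0.187 (SD 0.0756), with no overlap. The ratio differences were -0.11 (SD 0.0848) for Rpl39l to Rpl39 and -0.05 (SD 0.0285) for Rpl22l1 to Rpl22, both without overlap. The ratios of Rpl7l1 to Rpl7 and Rpl32l to Rpl32 overlapped between ages, at 0.026 and 0.03. These ratios are descriptions, since the smallest P that a two-sided exact permutation test allows here is 0.333. Rps4l and Rpl32l are close copies, and whether their probes also bind the partner mRNA was not tested.

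**Figure D4:**
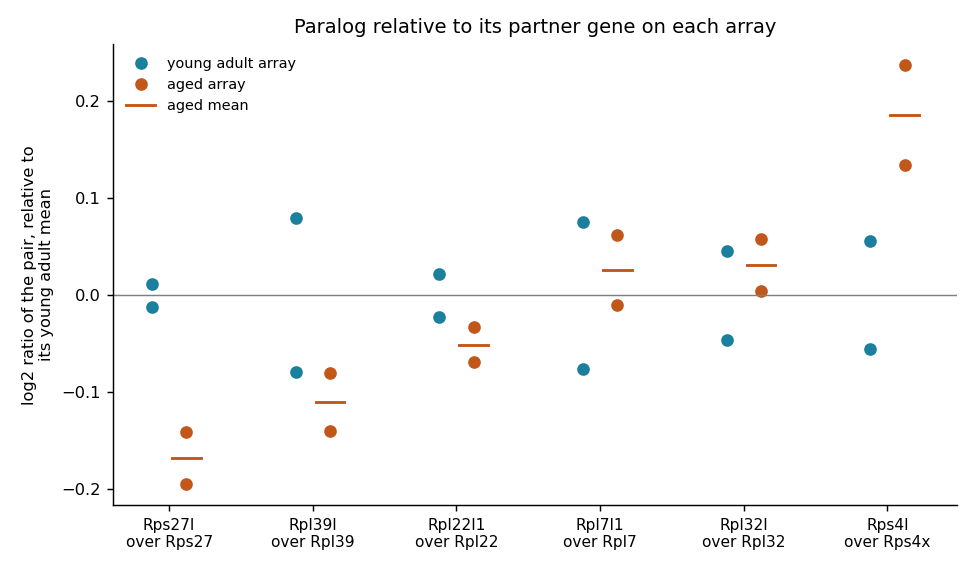
Log2 ratio of 6 paralogs to their partner genes on the 4 arrays, leaving out Rpl3l and Rpl10l, whose probes were not well above background, with the young adult mean of each pair set to 0 (vertical axis); blue points are young adult arrays, orange points aged arrays and orange lines aged means. Of the 6, the pair of Rps27l and Rps27 lies lowest in aged mice at -0.168 and the pair of Rps4l and Rps4x highest at 0.187.

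Of the 146 probes of the members, 142 were well above background on all arrays, 3 on none and 1 on some. Each tested probe was then fitted on its own: 0 of 145 were called, where 4.5% of 56593 probes were. Only 2 of them, the dim Rps15a probe and the second Rps27l probe given above, had an unadjusted P below 0.05. A lower mean in aged mice was found for 109 probes and a higher one for 36, with a median log2 difference of -0.0427. Of the 44 genes with 2 or more probes above background, all probes were lower in 27, all were higher in 1 (Rpl3) and signs were mixed in 16. The probes of one gene spanned a median of 0.0678 in log2 difference, which is wider than the median difference between ages. The widest span was 0.466, in Rps15a. In Rpl39, the member with most probes, all 5 were lower, from -0.0069 to -0.153. In Rpl31, 1 probe had -0.148 and the other 0.0129.

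**Figure D5:**
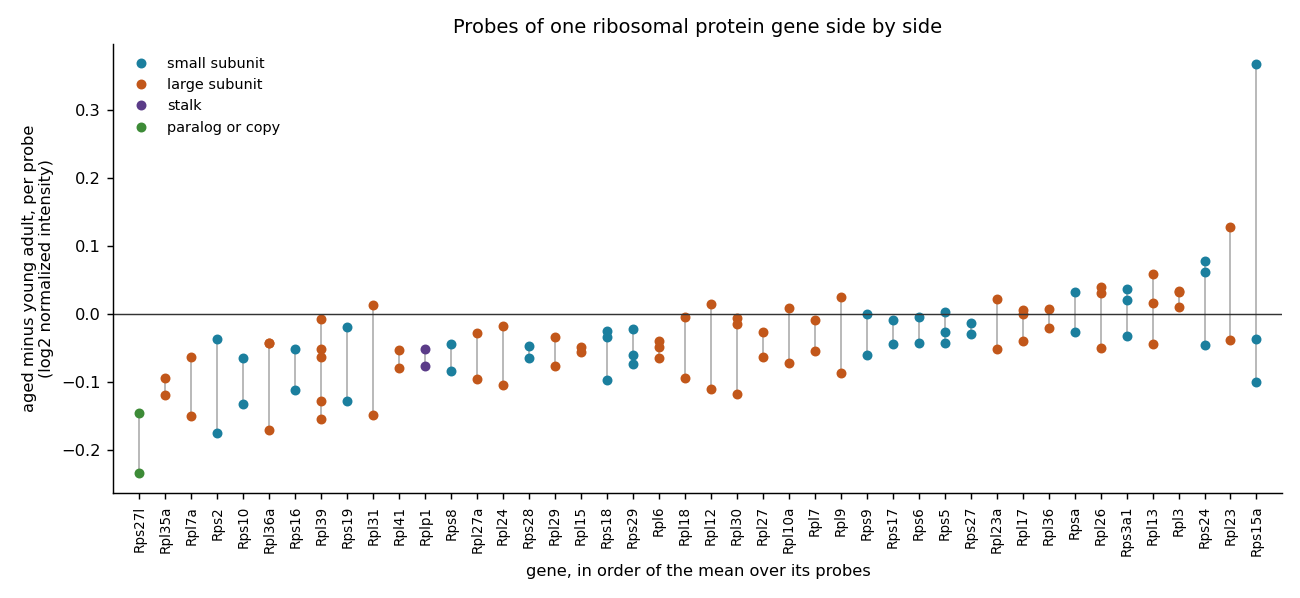
Aged minus young adult log2 difference of each probe (points) of the 44 ribosomal protein genes with 2 or more probes well above background on all arrays; grey lines join the probes of a gene. Most points lie between -0.2 and 0.1, and the dim probe of Rps15a stands alone at 0.367.

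Repeated spots show how finely an array can read one probe. On this design 300 probes are spotted 10 times, and 60 of them, for 48 genes, belong to the members. The log2 value of such a probe had a median SD of 0.103 over its spots, or a standard error of 0.0326 for their mean. Its SD between the pools of one age had a median of 0.0406, and its difference between ages a median size of 0.043. Spot error, pool spread and age difference were thus of a similar size.

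Among members opening with the tract shown above, the 13 tested had a median log2 difference of -0.039, and the 50 with an annotated start of another kind had a median of -0.054. These medians are a description of mRNA levels, with no test. Of the TOP genes printed, Rpl35 read 140310 and 137748 in young adult and 136570 and 126013 in aged mice, a log2 difference of -0.0837 (interval -0.343 to 0.175).

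The rest of the translation machinery was read from 7 lists of 299 genes in all, and 0 were called in either direction, against 3.98% of all genes. An unadjusted P below 0.05 was found for 13 of the 299, against 13.1% of all genes. The trend option called 40 higher and 12 lower of the 299 (16 and 1 of the 104 ribosome biogenesis genes), against its 15.6% of all genes. Some ribosomal proteins with names outside the rule were on one of these lists. Fau, a fusion of a ubiquitin-like protein with Rps30, had a log2 difference of -0.133, Rack1, a signalling scaffold on the small subunit, -0.124, and Rpl36al -0.078. In each of these genes the aged arrays were lower without overlap, and the 95% interval included 0. Of all genes 21.8% were lower without overlap, and of all genes with a mean level of at least 10000, 28.4% were.

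The 77 mitochondrial ribosomal protein genes, which serve the separate ribosomes of mitochondria, leaned the other way, with 54 higher and 23 lower means and a median log2 difference of 0.043. Among 104 ribosome biogenesis genes, which make and fold ribosomal RNA and export the subunits, 88 had higher and 16 lower means (48.5% of all genes had lower ones), with a median of 0.086. Both aged arrays lay above both young adult arrays in 52 of these 104 (50%, against 24.2% of all genes), and below them in 7 (6.73%, against 21.8%). Of the 104, 102 had a probe well above background on all arrays. Among all genes with such a probe, 31.6% were higher and 25.6% lower without overlap. Initiation factors had a median of 0.015 over 52 genes, elongation and release factors 0.002 over 17, mRNAs with a TOP tract that encode other proteins -0.01 over 19, and regulators of mTORC1 and TOP mRNAs 0.026 over 42. The difference between these lists and the cytosolic ribosomal protein genes was not tested.

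The following genes of these lists came nearest to a call and are named after their values were seen. Pabpc1, the poly(A)-binding protein and a TOP mRNA, read 25710 and 24892 in young adult and 19881 and 20103 in aged mice, a log2 difference of -0.34 (FDR 0.279, limma). Vim, the intermediate filament of fibroblasts and also a TOP mRNA, had -0.391 (FDR 0.252, limma). Ddit4, an inhibitor of mTORC1, read 18170 and 17869 against 23659 and 23491, a log2 difference of 0.388 (FDR 0.251, limma). Deptor, which binds and inhibits mTOR, had -0.466 (FDR 0.252, limma), and Myc, which drives ribosome biogenesis genes, -0.395 (FDR 0.286, limma). In each of the 5 the ages stood apart, as in 46% of all genes, and none passed the FDR threshold.

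Markers of several cell types differed between the same pools, where 1.65% of all genes were called higher and 2.33% lower in aged mice. Of the fibroblast markers, 6 of 10 were called lower in aged mice, and their summed level was 228398 to 253021 in young adult and 119481 to 127493 in aged mice. For proliferating cells 5 of 15 were lower, with sums of 13868 to 14236 against 12240 to 12410. Bright probes weigh most in such a sum: for these 15 the sum differed by -0.189 (log2), and the median over the genes was -0.471. For macrophages 4 of 10 were lower (14472 to 14844 against 11107 to 11208), and for chondrocytes and osteoblasts 6 of 10 (31118 to 33504 against 16309 to 17224). For mature olfactory receptor neurons 1 of 12 was higher (578208 to 587396 against 641515 to 649667), and for immature ones 1 of 12 was lower (125494 to 126090 against 115998 to 116310). Of the basal cell and progenitor markers 2 of 10 were lower (37756 to 37763 against 31276 to 31881). Of the sustentacular markers 1 of 12 was higher, and their sums overlapped (1284453 to 1293908 against 1285603 to 1297384). Of 11 gland markers 2 were higher and 2 lower (1708608 to 1743627 against 1564533 to 1572273). None of the 9 B and plasma cell or 8 erythroid markers was called. All 10 fibroblast and all 10 macrophage markers were well above background on all arrays. The part of these shifts in the small lean of the ribosomal protein genes was not tested. Many ribosomal protein genes also have processed pseudogenes nearly identical to their mRNA. No probe sequence was used here, so the share of signal from such copies was not measured.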

How the data were processed

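RNA of 4 pools (2 per age, 5 mice each) was hybridized to Agilent one-color arrays. The authors deposited, per spot, the median intensity, the median local background intensity, a processed intensity and flags from Feature Extraction 11.0.1.1, not normalized between arrays. The deposited series table equalled the processed intensity at all 62976 spots of each array. The study's methods name limma and R 3.2.1 for its own analysis.

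From the median intensities, background was corrected here by normexp (offset 0) in limma 3.58.1 (R 4.3.3), control and flagged spots were dropped, and log2 values were averaged per probe, quantile normalized and averaged per gene. The deposited values are on a linear scale and the log2 step was made here. Accessions were matched to RefSeq symbols (GRCm38.p6) for 58.3% of 56605 probes. Ages were compared with lmFit and eBayes on all 4 arrays without covariates, and the script was tested on simulated data. Intervals are 95% intervals from limma's moderated spread (3.38 degrees of freedom). With 1 intensity per spot and no counts, the number of arrays limits the precision. Members, lists and tests were chosen with earlier results of these data known. Rpl32l joined the paralogs once the match had found it.

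The genes named are the 8 members with the largest positive and the 8 with the largest negative difference among those with a probe well above background on all 4 arrays, the 3 of highest and 3 of lowest level, all paralogs, Rps3, and any called gene, with additions marked in the text. Replicate numbers were not used to pair the arrays in the main fit. Alternatives covered the background, the scaling, dim and flagged probes, the variance model, the replicate block, the shared slide and each array left out. One gene of the lists is not reported here.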

Additional observations from a re-analysis of the deposited data

How the results depend on the processing

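No ribosomal protein gene was called higher under any alternative run, and none was called lower except under 3 of them. Leaving out probes not well above background on both arrays of an age, or on all arrays, called 1 lower, and the intensity trend called 5 (the first 2 settings test fewer genes). The 299 other translation genes went from 0 called to the counts below, each beside the share of all genes called. An offset of 50 gave 6 higher and 6 lower (10% of all genes), and an offset of 16 gave 1 and 4 (6.55%). With no background correction 1 and 5 were called (8.83%). The processed intensity gave 0 and 1 when scaled to the 75th percentile (3.3%), and 3 and 4 when quantile normalized (9.59%). Cyclic loess gave 1 and 4 (5.12%), and the most intense probe per gene 1 and 2 (5.3%). Leaving out dim probes in the 2 ways gave 21 and 8 (24.2% of the genes left) and 25 and 9 (26.5%). With the trend, 40 and 12 were called (15.6%). The cause was not tested.

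The median log2 difference of the members was negative in every alternative run. Cyclic loess moved it to -0.0725 (small subunit -0.055, large subunit -0.0744), and leaving out 1 array gave -0.0535 to -0.0307 (-0.0307 without aged array 1), with -0.0684 to -0.0219 for the large subunit (-0.0219 without young adult array 2). On the slide that holds both ages it was -0.0392. The processed intensity scaled to the 75th percentile moved the median of all genes to 0.066, and the members' median less that of all genes was between -0.107 and -0.044 over the alternatives. The share of members lower without overlap was 34.5% with the 75th percentile (20.8% of all genes). It was 29.8% with the processed intensity so scaled (18.7%) and 54.8% with cyclic loess (22.55%). Some of the largest falls shrank with the 75th percentile and with the processed intensity so scaled. Rpl11 was at -0.0706 and -0.0508, Rpl37a at -0.0762 and -0.0619, Rps14 at -0.0765 and -0.0636, and Rpl32 at -0.0811 and -0.0568. Rps4x, Rpl22l1, Rps27l and Rpl39l stayed at -0.1088 or lower in both. Signs turned for genes near 0. With the processed intensity and the 75th percentile, Rplp2 was at 0.021 and Rps20 at 0.0037. With the 75th percentile alone, Rplp2 was at 0.0078 and Rpl7l1 at 0.0107, and without background correction Rpl7l1 was at 0.0023. With the most intense probe, Rps15a was at -0.0367 and Rps24 at -0.0452. With each array left out in turn, Rpl13a ran from -0.0068 to 0.0751, Rps24 from -0.0109 to 0.0745, Rps20 from -0.077 to 0.0172, Rpl10 from -0.1399 to 0.0339, Rpl7l1 from -0.0609 to 0.0502 and Rplp2 from -0.0777 to 0. On the shared slide, Rps24 was at -0.0154, Rps20 at 0.0102, Rpl10 at 0.0179 and Rpl7l1 at 0.0815.

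Gene by gene, arrays with the same replicate number did not deviate together (r = -0.0779 over all genes and -0.37 over the members, across genes). Such a correlation does not register a shift that all members share. The median deviation of the 81 members above background was lower on array 1 than on array 2 at both ages. It was 0.013 against 0.033 in young adult and -0.028 against -0.009 in aged mice. The first arrays shared a slide, and whether the slide plays a part was not tested. With the replicate number as a block, 0 members were called, and 0 of all 45604 genes. Leaving out an array also called 0 of all genes, so neither bears on stability. Slide as a random block was not run, because 4 arrays gave no estimate for it. Differences under about 1.33-fold were below the size for a call in the fit reported at the members' median error. No fold or bound is given in the text for Rpl3l, Rpl10l and Rpl37, whose probes were dim.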
